A study of Rattus norvegicus with 10 samples.

Results

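A set of 10 genes of the interleukin-1 (IL-1) system and the inflammasome were followed in the RNA of plasma exosomes, which are vesicles that cells shed into the blood. They were the ligands Il1a, Il1b and Il18, the antagonist Il1rn, the receptor genes Il1r1, Il1r2 and Il1rap, and the inflammasome genes Nlrp3, Pycard and Casp1. A gene was taken up through the array's transcript clusters, each of which pools the probes of 1 transcribed region, where the platform annotation gave that gene as the only symbol. All 10 genes had such a cluster, out of 22098 genes named singly in the table. Il18 had 2 clusters, and the one with the higher mean stands for it. The list was chosen by function, prompted by the measured values of Il1b, which had been seen to be lower in RIC than in control, so every comparison of these 10 genes between the groups is a description, given without a test of its own.

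The samples came from 10 male Wistar rats, 1 array per animal. The 5 rats of the RIC group had remote ischemic conditioning, in which the blood supply of a distant part of the body is cut off and restored, here in 4 cycles of 5 min without and 5 min with flow. The 5 rats of the other group were labelled healthy controls, and the labels do not say whether they had a sham procedure. The same note on the cycles stands with every rat, controls included, and is read here as describing the RIC group. Blood was taken into EDTA tubes and exosomes were spun down by ultracentrifugation. The sources used here give neither age nor the body part made ischemic, nor the interval before blood was taken. Values are log2 array signals as deposited, shown as mean ± SD with n = 5 rats per group unless stated otherwise, and a difference is RIC minus control on that log2 scale.

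IL-1 alpha and IL-1 beta are cytokines that start and spread inflammation. Both act through the receptor encoded by Il1r1 together with the accessory chain encoded by Il1rap, while the product of Il1r2 binds ligand without signalling and that of Il1rn occupies the receptor without activating it. IL-1 beta and IL-18 are made as inactive precursors, and the protease caspase-1 (Casp1) cuts them after the sensor NLRP3 and the adaptor ASC (Pycard) have assembled into an inflammasome. Monocytes, macrophages and neutrophils are the main blood sources of IL-1 beta, and platelets can also carry its transcript.

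The start regions of Il1b, Il1a and Il1rn, the ligand and antagonist genes lower in RIC, are printed from RefSeq (GRCr8, 250 bases before to 50 bases after the annotated start, gene strand, 5′ to 3′), because these 3 genes were also the members whose window held the TATA box letters TATAAA. Capitals mark that motif, which reads TTTATA where it lies on the opposite strand. The Il1b window is chr3:137036532-137036831 on the minus strand, with 1 match that begins 60 bases before the start. The Il1a window is chr3:136989968-136990267 on the minus strand, with a match beginning 32 bases before the start and one on the opposite strand 237 bases before it. The Il1rn window is chr3:27520072-27520371 on the plus strand, with 1 match on the opposite strand 64 bases before the start.
Il1b: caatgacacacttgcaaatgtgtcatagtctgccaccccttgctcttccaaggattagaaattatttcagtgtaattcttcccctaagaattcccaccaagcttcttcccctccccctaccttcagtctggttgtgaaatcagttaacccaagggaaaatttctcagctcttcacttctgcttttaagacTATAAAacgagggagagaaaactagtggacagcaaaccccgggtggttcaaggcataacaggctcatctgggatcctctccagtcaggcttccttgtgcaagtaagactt
Il1a: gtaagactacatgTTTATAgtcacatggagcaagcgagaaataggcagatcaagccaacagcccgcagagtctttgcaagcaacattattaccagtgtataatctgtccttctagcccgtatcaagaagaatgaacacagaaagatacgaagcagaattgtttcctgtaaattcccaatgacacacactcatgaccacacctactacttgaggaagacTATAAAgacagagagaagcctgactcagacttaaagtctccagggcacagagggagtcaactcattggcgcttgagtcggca
Il1rn: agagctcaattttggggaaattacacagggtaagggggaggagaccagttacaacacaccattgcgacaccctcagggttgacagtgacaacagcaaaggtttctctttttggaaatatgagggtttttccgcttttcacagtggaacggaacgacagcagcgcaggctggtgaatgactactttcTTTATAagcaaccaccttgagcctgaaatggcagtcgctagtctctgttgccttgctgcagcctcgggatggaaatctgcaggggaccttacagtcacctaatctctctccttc
Sequences of this kind were found for 9 of the 10 genes, and 3 of the 9 held TATAAA on either strand, against 14.2% of 33469 rat start regions. The C/EBP letters TTNNGNAA, searched on both strands, stood in the windows of Il1a, Il1b, Il1rn, Casp1 and Nlrp3 (5 of 9) and in 41.3% of all windows. A match to the NF-kB site was found for Il1r1 and Il1rap and in 7.51% of all windows, and the AP-1 letters TGACTCA or TGAGTCA for Il1a and in 4.63%. These are letter matches in short windows, and no binding was measured. Il1a and Il1b are direct neighbours among the protein-coding genes of chromosome 3, and Il1rn lies elsewhere on that chromosome beside Il1f10, Il36rn and Il36b.

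By signal, the members fell into bright and dim ones. As a measure of signal without expression, 1446 clusters of olfactory and vomeronasal receptor genes had a median level of 4.01 and a 95th percentile of 4.38, and 32.7% of all 68842 clusters lay above that percentile. By their mean over the 10 arrays, 8 of the 10 members exceeded it. Casp1 had the highest level at 8.50, followed by Il1rn at 6.75, Il1a at 6.11, Il1r1 at 5.43 and Il1b at 5.34, and each of these 5 exceeded the receptor 95th percentile of the same array on all 10 arrays. Pycard (4.67) did so on 6 arrays, Il18 (4.57) on 4 and Nlrp3 (4.43) on 3, while Il1r2 (4.17) and Il1rap (4.25) did so on 0. Probes differ in how strongly they bind, so these levels do not rank the genes by RNA amount. Signal for Il1a, Il1b, the antagonist, the signalling receptor and caspase-1 was thus above background on every array, and that for the other 5 members was close to it or within it.

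**Figure D1:**
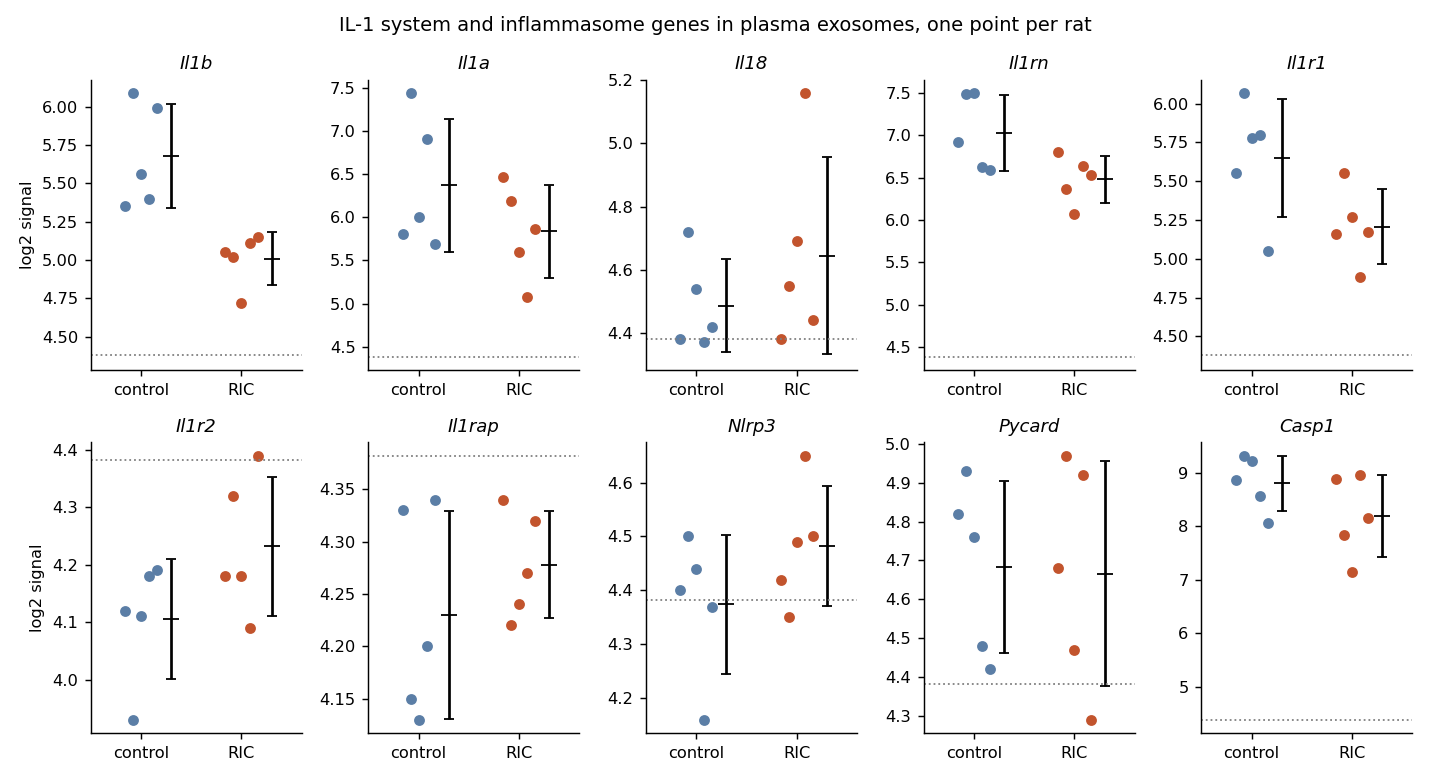
Log2 signal of each of the 10 genes in each rat, 5 control (blue) and 5 RIC (orange) points per panel, with the group mean and SD in black and the receptor 95th percentile of 4.38 dotted. The Il1b points of RIC all lie under those of control, whereas the points of the other 9 genes overlap, and the vertical scales differ between panels.

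Il1b, which encodes IL-1 beta, was the gene whose difference led to the choice of this list. Control samples 1 to 5 measured 5.35, 6.09, 5.56, 5.40 and 5.99, and RIC samples 1 to 5 measured 5.05, 5.02, 4.72, 5.11 and 5.15. The highest RIC value lay under the lowest control value, so the groups did not overlap. The means were 5.01 ± 0.17 in RIC and 5.68 ± 0.34 in control, a difference of -0.67 (SE 0.16) or 1.59-fold on the linear scale. Groups that did not overlap, with RIC lower, were found for 0.471% of all clusters and for 1.12% of the 22543 clusters above the receptor 95th percentile, and with RIC higher for 1.27% and 0.683%. A difference as low as that of Il1b or lower was found for 1.49% of all clusters and 4.56% of those above the percentile. Leaving out 1 rat at a time gave differences from -0.75 to -0.57. Control samples 1 and 2 lay farthest from the mean of the other controls over the whole array (root mean square distance 0.297 each, against 0.242 to 0.276 for the other 3 controls and 0.237 to 0.304 within RIC), and leaving them both out gave -0.64.

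Il1a, the gene of IL-1 alpha, measured 5.81, 7.44, 6.0, 6.91 and 5.69 in control samples 1 to 5 and 6.47, 6.19, 5.60, 5.08 and 5.86 in RIC samples 1 to 5. Control samples 2 and 4 were the 2 highest, and the groups overlapped. The means were 5.84 ± 0.54 in RIC and 6.37 ± 0.77 in control, a difference of -0.53 (SE 0.39), which is smaller than the SD of the controls. It came to -0.26 without control sample 2 and -0.34 without RIC sample 4.

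Il18, the other precursor cytokine cut by caspase-1, measured 4.38, 4.72, 4.54, 4.37 and 4.42 in the controls and 4.38, 4.55, 4.69, 5.16 and 4.44 in RIC. RIC sample 4 stood highest, and the groups overlapped. The difference was 0.16 (SE 0.15), and 0.03 without RIC sample 4. Its other cluster had a mean of 4.08, under the receptor 95th percentile, and a difference of 0.04 (SE 0.17).

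Il1rn, the receptor antagonist, measured 6.92, 7.49, 7.50, 6.63 and 6.59 in control samples 1 to 5 and 6.80, 6.36, 6.07, 6.64 and 6.53 in RIC samples 1 to 5. Of the RIC values, 3 lay under the lowest control value, and control samples 2 and 3 were highest. The means were 6.48 ± 0.28 in RIC and 7.03 ± 0.45 in control, a difference of -0.55 (SE 0.22) or 1.46-fold on the linear scale. As deposited, this was close to the difference of Il1b, but after repeated quantile normalization it was -0.32 against -0.60 for Il1b, and with the level-dependent trend removed -0.41 against -0.61. Within an array, Il1rn minus Il1b was 1.47 ± 0.17 in RIC and 1.35 ± 0.49 in control, and the ranges, 1.34 to 1.75 in RIC and 0.60 to 1.94 in control, were nested.

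Il1r1, the receptor that signals for both IL-1 cytokines, measured 5.55, 6.07, 5.78, 5.80 and 5.05 in the controls and 5.16, 5.55, 5.27, 4.88 and 5.17 in RIC. Control sample 5 lay within the RIC range and the other controls at or above its top. The means were 5.21 ± 0.24 in RIC and 5.65 ± 0.38 in control, a difference of -0.44 (SE 0.19). Il1r2, the decoy receptor encoded near it on chromosome 9, ranged from 4.09 to 4.39 in RIC (median 4.18) and from 3.93 to 4.19 in control (median 4.12), a difference of 0.13 (SE 0.07). Il1rap, the accessory chain, ranged from 4.22 to 4.34 in RIC and from 4.13 to 4.34 in control, a difference of 0.05 (SE 0.05). Both had the level of the olfactory receptor clusters, whose median was itself higher in RIC by 0.09 (4.04 ± 0.03 against 3.96 ± 0.04), and with arrays centred on those clusters the differences were 0.04 for Il1r2 and -0.04 for Il1rap.

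Casp1, the protease of the inflammasome, measured 8.87, 9.32, 9.22, 8.56 and 8.06 in control samples 1 to 5 and 8.89, 7.83, 7.14, 8.96 and 8.15 in RIC samples 1 to 5. RIC samples 2 and 3 lay under every control, the other 3 RIC samples did not, and the groups overlapped. The means were 8.19 ± 0.76 in RIC and 8.81 ± 0.51 in control, a difference of -0.61 (SE 0.39), and -0.35 without RIC sample 3. Nlrp3, the sensor, ranged from 4.35 to 4.65 in RIC and from 4.16 to 4.50 in control, a difference of 0.11 (SE 0.07), which came to 0.05 without control sample 4 and 0.02 with arrays centred on the receptors. Pycard, the adaptor, ranged from 4.29 to 4.97 in RIC and from 4.42 to 4.93 in control, and its difference of -0.02 (SE 0.15) was far smaller than the spread within either group. Inflammasome assembly and caspase activity are protein events and were not measured.

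Over the 10 genes, 6 were lower and 4 higher in RIC, with a median difference of -0.23. Of all clusters, 37.4% were lower and 60.0% higher, with a median difference of 0.03. Among the 8 members above the receptor 95th percentile 6 were lower, while of all clusters above it 56.9% were lower and 36.3% higher. At an unadjusted p under 0.05 in limma, 3 members were lower (Il1b, Il1rn and Il1r1) and 0 higher. The corresponding shares of all clusters were 3.17% lower and 7.97% higher, and of those above the percentile 7.33% and 3.95%. That split of all clusters turned with the scaling, from 2180 lower and 5485 higher as deposited to 4921 and 1800 with arrays centred on the median, 7128 and 1263 centred on the receptors, 3451 and 3327 after repeated quantile normalization, and 3408 and 2979 with the level-dependent trend removed. Because the list was chosen with this contrast known, nothing is read from the count of 3 members. For Il1b, chosen for being lower in these same values, that p is no test. No member passed the adjusted threshold. With limma and Benjamini-Hochberg adjustment over all clusters, 0 of 68842 (0.0%) had an adjusted p under 0.05, the lowest was 0.302, and 7665 (11.1%) had an unadjusted p under 0.05.

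How far a gene differed also went with its level over the array as a whole. Clusters with a mean of 4.0 to 4.5 had a median difference of 0.05, those of 5.0 to 5.5 of -0.06, those of 6.0 to 6.5 of -0.16 and those of 8.5 to 9.0 of -0.29. Among clusters of 5.0 to 5.5 the 5th percentile was -0.44, so Il1b (-0.668) lay below it and Il1r1 (-0.444) at it. Il1a, Il1rn and Casp1 lay below the median of the clusters of their level and above the 5th percentile, which was -0.67 at 6.0 to 6.5, -0.77 at 6.5 to 7.0 and -1.22 at 8.5 to 9.0. The median of clusters with a mean of 6 to 18 was 7.70 ± 0.14 in RIC and 7.99 ± 0.23 in control, and highest in control sample 2 at 8.37. Once each array's level-dependent trend was removed, the differences were -0.61 for Il1b, -0.42 for Il1a, -0.41 for Il1rn, -0.38 for Il1r1 and -0.45 for Casp1. Repeated quantile normalization gave -0.60, -0.35, -0.32, -0.34 and -0.32 for the same genes, so these 5 kept their direction under each scaling run while Il1rn, Il1a and Casp1 shrank by more than 1.5 times under the latter.

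**Figure D2:**
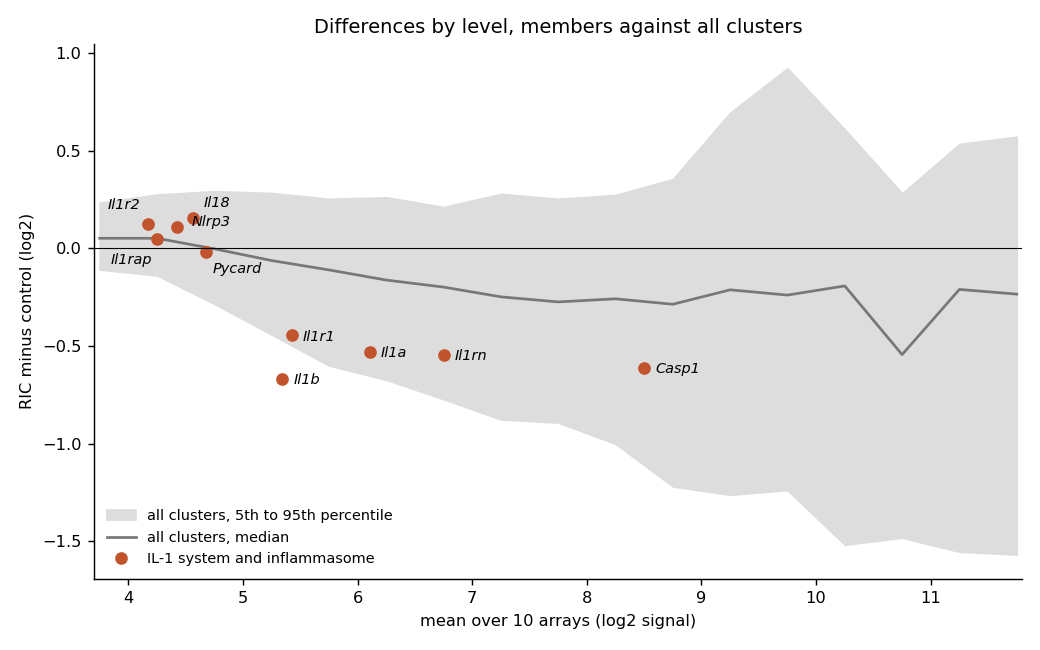
Difference between the groups (log2) against mean level over 10 arrays for the 10 members (orange), with the median (line) and the 5th to 95th percentile (grey) of all clusters in steps of 0.5. The band joins the values at the middle of each step. Il1b at -0.668 lies below the grey band, and every other member lies within it, Il1r1 near its lower edge.

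**Figure D3:**
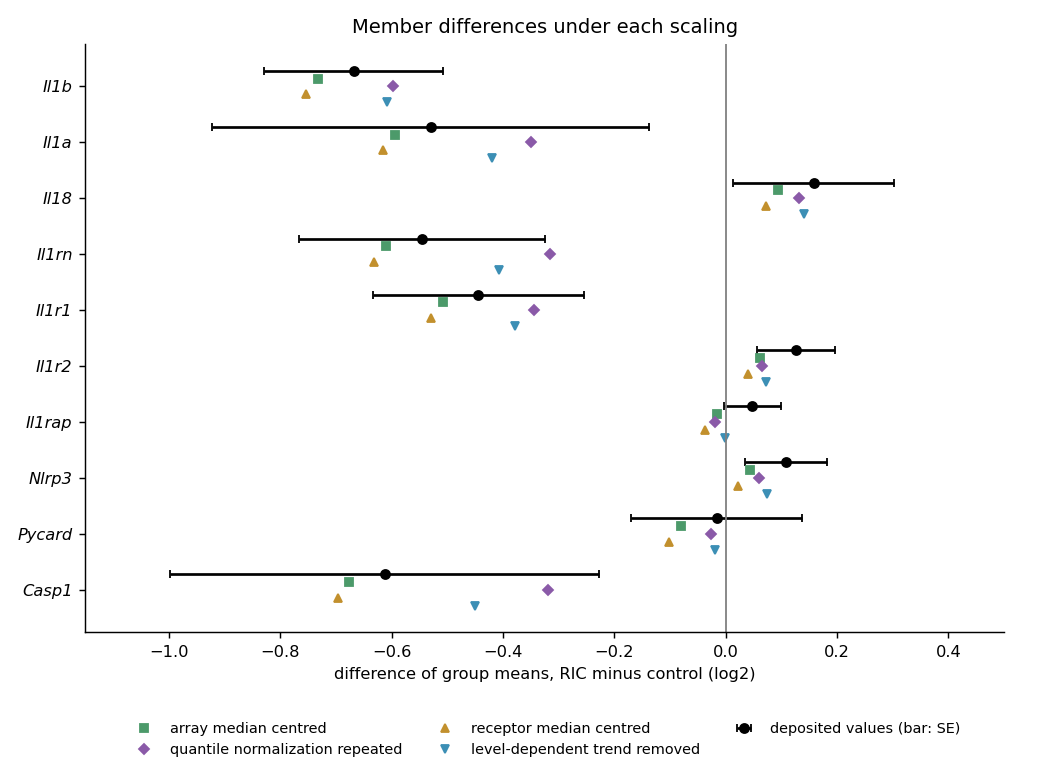
Difference of group means (log2) of each member in the deposited values, with SE, and under 4 other scalings. Il1b, Il1a, Il1rn, Il1r1 and Casp1 stay below 0 in each, Il18, Il1r2 and Nlrp3 stay above 0, Pycard stays slightly below 0, and Il1rap changes sign.

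How members varied among rats within a group was described by the correlation of their deviations from the group means over the 10 arrays, for the 8 members above the receptor 95th percentile (28 pairs). Il1rn and Casp1 went together most closely (r = 0.862), with control samples 2 and 3 high and RIC sample 3 lowest in both. Il1a and Il1r1 followed (r = 0.750), and then Il18 and Nlrp3 (r = 0.712). Il1b was not closely tied to any other member, with r from -0.135 (Il1r1) to 0.411 (Nlrp3). Among 9360 other named genes above the percentile, those most like Il1b by the same measure were Rps28l1 (0.924), Twist1 (0.921), Rpl30l1 (0.907), Mrps6 (0.905) and Uqcrfs1 (0.897). Their own differences between the groups were 0.11, -0.24, 0.08, 0.04 and -0.03. Mrps6 (mean 4.39) and Uqcrfs1 (4.40) were close to background, exceeding the receptor 95th percentile of the same array on 2 arrays and 1 array. All values share the same 10 arrays, and the highest of so many coefficients are high by selection, so they are given as a description only.

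The wider pathway was taken as 78 further genes in 7 groups, of which 76 had a cluster and 40 lay above the receptor 95th percentile. In RIC 37 were lower and 38 higher, with a median difference of 0.00. None passed the limma test with adjustment over all clusters, and at an unadjusted p under 0.05 there were 4 lower and 4 higher, beside 3.17% and 7.97% of all clusters. These counts depended on the scaling: 0 were higher under each of the 4 other scalings, and 7 were lower with arrays centred on the median, 8 centred on the receptors and 1 after repeated quantile normalization. Among the 40 above the percentile, 30 were lower and 9 higher, with a median difference of -0.12, against 56.9% lower and a median of -0.03 among all clusters above it. That share was not matched for level. It was 50.1% for all clusters with a mean of 4.5 to 5.0, 65.4% at 5.0 to 5.5 and 78.8% at 6.5 to 7.0. The counts by group below are descriptions, to be set beside these shares. All 4 genes lower at an unadjusted p under 0.05 were above the percentile, and all 4 higher ones, Il36rn, Il1rl2, Nlrp2 and Tnf, were below it.

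Of the other ligands and binding proteins of the family, Il33 was the 1 of 7 above the receptor 95th percentile. Il33 encodes the nuclear alarmin IL-33, which endothelial and epithelial cells release when damaged. It measured 8.47, 11.38, 11.01, 10.79 and 8.83 in control samples 1 to 5 and 8.91, 9.35, 8.02, 7.83 and 8.54 in RIC samples 1 to 5. Control samples 2, 3 and 4 stood above all other rats, and control samples 1 and 5 lay within the RIC range. The means were 8.53 ± 0.63 in RIC and 10.10 ± 1.34 in control, a difference of -1.57 (SE 0.62, limma adjusted p = 0.421). Il36rn, the antagonist of the IL-36 receptor, differed by 0.20 (adjusted p = 0.426) at a background level of 3.86, and Il18bp, the binding protein that neutralises IL-18, by 0.01 (adjusted p = 0.970) at 4.25 ± 0.04 in control.

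Of the 7 other family receptors, Il18rap, a chain of the IL-18 receptor, was the 1 above the receptor 95th percentile, with a mean of 4.66 and a difference of 0.01. In RIC 6 of the 7 were higher, with differences from -0.02 to 0.16. Of the 1446 olfactory and vomeronasal receptor clusters, 1105 were also higher, with a median difference of 0.09. Il1rl2, the IL-36 receptor, measured 4.08 ± 0.05 in RIC and 3.92 ± 0.12 in control (limma adjusted p = 0.395), and Sigirr, a receptor that restrains IL-1 signalling, 4.04 ± 0.04 and 4.02 ± 0.07. Of the 13 genes that carry the signal from the receptor, 11 were above the receptor 95th percentile, 10 were lower and none passed even an unadjusted p of 0.05 in limma. Myd88, the adaptor of IL-1 and Toll-like receptors, measured 5.39 ± 0.05 in RIC and 5.56 ± 0.23 in control, its kinase partner Irak4 4.68 ± 0.06 and 4.76 ± 0.26, and the ubiquitin ligase Traf6 6.06 ± 0.30 and 6.27 ± 0.36. These differences were within the spread of the controls.

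In the NF-kB group, which receives that signal, 8 of 12 genes were lower. Chuk, the kinase IKK alpha, measured 5.35 ± 0.12 in RIC and 5.57 ± 0.13 in control (difference -0.22, limma adjusted p = 0.400), with 4 of 5 RIC values under the lowest control. Nfkbia, the NF-kB inhibitor that is itself induced by NF-kB, measured 6.67 ± 0.34 and 7.05 ± 0.54 (difference -0.38, adjusted p = 0.592). Of 15 genes that IL-1 induces, 11 were higher, beside 60.0% of all clusters, and 3 were above the receptor 95th percentile. Of those 3, the chemokine genes Ccl2 (-0.59) and Ccl3 (-0.32) had negative differences, and the adhesion molecule gene Vcam1 (0.27) a positive one. Tnf, the gene of tumour necrosis factor, measured 4.27 ± 0.10 in RIC and 4.07 ± 0.15 in control (adjusted p = 0.411), a background level on an array where the receptor clusters were also higher in RIC. Il6, another induced cytokine, measured 3.86 ± 0.18 and 3.88 ± 0.09.

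Of 17 other genes of inflammasome sensing and caspase activation, 10 were lower. The caspase genes Casp4 and Casp12 lie beside Casp1 on chromosome 8. Casp12 measured 5.11, 6.60, 6.19, 6.46 and 5.51 in control samples 1 to 5 and 5.22, 5.83, 5.01, 5.15 and 5.28 in RIC samples 1 to 5. As for Il33, control samples 2, 3 and 4 were highest and the other 2 controls lay within the RIC range. The difference was -0.68 (SE 0.30, limma adjusted p = 0.448). Casp4, a sensor of intracellular lipopolysaccharide, differed by -0.40 (SE 0.41). These caspases are related in sequence, and which probes are shared between them is not known from the files. Casp8, a caspase of death receptors, measured 5.61 ± 0.08 in RIC and 5.75 ± 0.10 in control (adjusted p = 0.445), and the sensor Nlrp2 3.90 ± 0.08 and 3.77 ± 0.07 (adjusted p = 0.421). The sensors Nlrc4 and Aim2 differed by -0.03 and -0.01. Gsdmd, the pore protein through which IL-1 beta leaves the cell, measured 4.50 ± 0.09 in RIC and 4.47 ± 0.07 in control.

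**Figure D4:**
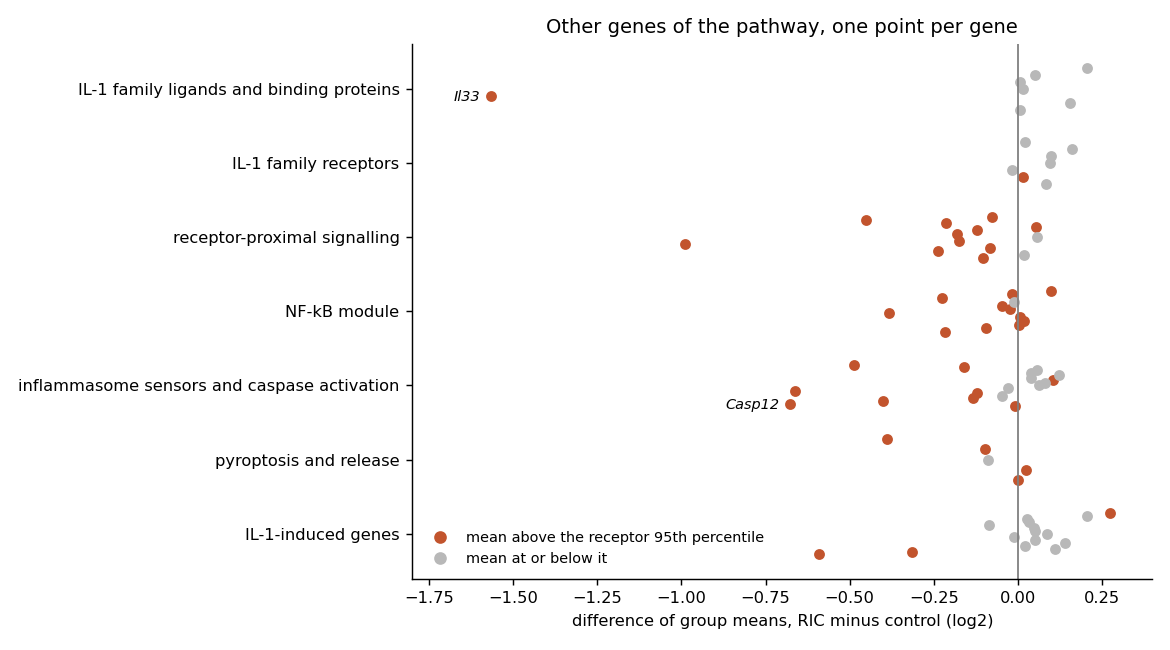
Difference of group means (log2, RIC minus control) of 76 further pathway genes in 7 groups, 1 point per gene, orange where the mean level exceeds the receptor 95th percentile. Il33 at -1.57 and Casp12 at -0.68 are labelled, and genes at background (grey) lie mostly at or just above 0.

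Markers of the cells that could carry these transcripts were set beside them, since in bulk vesicle RNA fewer vesicles of a cell type and less RNA per vesicle cannot be told apart. All 8 vesicle genes measured were above the receptor 95th percentile, and Cd9 and Sdcbp stood at the table's highest value of 19.93 on every array, where no difference can show. Of the other 6, 5 were lower in RIC, and their mean was 6.25 ± 0.13 (6.14 to 6.46) in RIC and 6.49 ± 0.22 (6.27 to 6.79) in control. The difference was -0.242. Counts here and below stand beside 56.9% lower and 36.3% higher among all clusters above the percentile, and 37.4% and 60.0% among all clusters. At levels of 5.0 to 5.5, 6.5 to 7.0 and 7.0 to 7.5, 65.4%, 78.8% and 78.2% of all clusters were lower. The mean over the 11 monocyte and macrophage genes was 5.30 ± 0.12 in RIC and 5.39 ± 0.17 in control, with ranges of 5.12 to 5.43 and 5.24 to 5.63, and 5 of the 11 were lower. The mean over the 12 neutrophil genes was 5.14 ± 0.19 and 5.06 ± 0.30, with ranges of 4.88 to 5.41 and 4.82 to 5.45, and 6 of the 12 were lower. By their mean, 8 of the 11 monocyte and macrophage genes and 8 of the 12 neutrophil genes lay above the receptor 95th percentile. Of the former, Csf1r (5.50), Lyz2 (5.59), Cd68 (6.40) and Ccr2 exceeded that of the same array on all 10 arrays. Of the latter, S100a8 (5.42), S100a9 (7.33), Csf3r (4.76), Mmp8 (6.28), Fcnb (7.04) and Ngp (5.02) did so. Cd14 (4.39) had a mean just above the percentile but exceeded that of the same array on 2 arrays only. Elane (4.30), Ltf (3.91), Camp (3.95), Cxcr2 (4.15), Itgam (4.23), Adgre1 (4.31) and Ms4a7 (4.05) had a mean below it. The monocyte receptor gene Ccr2, whose cluster is labelled unmapped, had the highest signal of its list. It measured 9.46 ± 0.96 in RIC and 10.86 ± 1.25 in control (limma adjusted p = 0.468), whereas Mpo, which encodes the myeloperoxidase of neutrophil granules, measured 4.84 ± 0.23 and 4.37 ± 0.18 (limma adjusted p = 0.356). Of 11 platelet genes measured, 4 (Pf4, Tubb1, Mmrn1 and Clec1b) also stood at 19.93 on every array. Of the 7 that varied, Gp9, Treml1 and P2ry12 held 1 value on most arrays, so this list can show little of a difference. The 7 had means of 17.58 ± 0.51 in RIC and 17.86 ± 0.29 in control, and the difference of -0.283 came to -0.075 without RIC sample 5. All 9 endothelial genes were lower, with a list mean of 6.70 ± 0.23 (6.57 to 7.10) in RIC and 7.20 ± 0.47 (6.79 to 7.97) in control, and the difference of -0.505 came to -0.312 without control sample 2. After repeated quantile normalization the endothelial difference was -0.337 and the vesicle difference -0.071. With the level-dependent trend removed they were -0.42 and -0.133. With arrays centred on the median they were -0.569 and -0.306, and centred on the receptors -0.59 and -0.327. Other lists went up. All 6 erythroid genes that varied were higher, with a list mean of 7.62 ± 0.70 in RIC and 7.15 ± 0.26 in control. That difference of 0.473 came to 0.175 without RIC sample 4. Of the 11 lymphocyte genes 8 were higher, and their list mean differed by 0.083. By two-sided exact permutation test over 252 assignments, the unadjusted p was 0.0635 for the endothelial and the vesicle list, 0.135 for the lymphocyte, 0.175 for the erythroid, 0.310 for the platelet, 0.381 for the monocyte and 0.556 for the neutrophil list. The smallest p this design allows is 0.00794, with which a single list would not pass 0.05 after adjustment over 7 lists, so the lists' levels are given without a call. The part of any of these cell types in the differences of the IL-1 genes was not tested.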

How the data were processed

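The authors deposited 1 table of log2 signals with a column per rat, and the submitters' processing notes name Affymetrix Expression Console. The sources used here do not give its version, the summarisation, the normalization or the genome build. Values had 2 decimals, from 2.71 to 19.93, and array medians from 4.05 to 4.23. The number of arrays limits the precision.

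Groups came from the sample titles. All 68842 clusters were fitted together with lmFit and eBayes (limma 3.58.1, R 4.3.3) without covariates or further scaling, adjusted by Benjamini-Hochberg over all clusters at 0.05. Single-symbol clusters were named from the platform annotation (23456 clusters, 22077 matched to RefSeq by gene number, 1 symbol updated). The cluster with the highest mean stood for a gene. The fit was tested on simulated data. Members and lists were chosen with earlier results of these data known. The text names every member, pathway genes with an unadjusted p under 0.05, Myd88, Irak4, Traf6, Nfkbia, Il18bp, Sigirr, Gsdmd, Nlrc4, Aim2, Tnf and Il6, and the 5 genes most like Il1b. Casp4, Il18rap, Ccl2, Ccl3, Vcam1, Cd9, Sdcbp and the single white-cell and platelet markers were named after their values were seen. Alternatives covered scaling, variance model, array weights, dim clusters, averaging of clusters, a replicate block and leaving out rats. The animals were separate, and p-values reflect only how these 10 rats varied.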

Additional observations from a re-analysis of the deposited data

Results flagged for a closer look

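Each member and each marker list mean was checked for a rat far from the other 4 of its group (36 checks, of which chance flags about 1 in 20 groups). The second, dimmer cluster of Il18 measured 4.73 in control sample 5, against 3.77 to 4.01 in the other controls. The mean of the endothelial list was 7.10 in RIC sample 2, while the other RIC samples lay between 6.57 and 6.64. No value of the 10 members' own clusters was set apart in this way.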

How the results depend on the processing

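The count of clusters with an adjusted p under 0.05 was 0 in every alternative run, 8 members lay above background under each scaling and with rats left out (7 once the clusters of a gene were averaged, when Il18 fell below; the variance model, weights and block do not touch levels), and the members lower in RIC numbered 5 to 7. The Il1b difference ran from -0.75 to -0.57 over all 20 alternatives. Members with an unadjusted p under 0.05 numbered 1 after repeated quantile normalization and without control samples 1 and 2 (an alternative chosen after seeing the data), and 1 to 3 with 1 rat left out. They fell to 1 without control sample 2 or 3 or RIC sample 3 or 5. That count is a description only, since Il1b was chosen for being lower. Pathway genes lower in RIC at an unadjusted p under 0.05 numbered 7 with arrays centred on the median, 8 centred on the receptors, 1 after quantile normalization, 2 without control samples 1 and 2, and 1 to 7 with 1 rat left out. Those higher in RIC numbered 0 under each of the 4 scalings and above the receptor 95th percentile, 1 without control samples 1 and 2, and 2 to 5 with 1 rat left out. The replicate block gave 1 pathway gene higher in RIC. Same-numbered rats correlated from -0.07 to 0.23 in their deviations, so the numbers do not pair them, and the block is given here only. The lymphocyte list mean turned to -0.002 with arrays centred on the receptors, and the neutrophil list mean to -0.063 without control samples 1 and 2. The cause was not tested. The signs of Il1rap and Pycard changed in 4 of 19 and 7 of 20 alternatives, and those of the other 8 members in 0. Signal close to background limits what can be said of Il1r2, Il1rap, Nlrp3, Il18 and Pycard.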
